A study of Mus musculus with 2 samples.

Results

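The genes of MHC class I antigen presentation examined here were H2-D1, H2-K1, B2m, Tap1 and Nlrc5, taken by their symbols from the gene list of the deposited matrices, 5 of the 32285 genes in it. They were followed by droplet RNA sequencing of single mouse embryonic stem cells, of the inbred strain C3H/HeSn-Paf/J, taken at an early passage (time 1) and 10 passages later (time 2). Each time point was 1 library in which 9 lines were mixed, 3 each derived from XX, XO and XY embryos. All cells were grown in serum with leukaemia inhibitory factor on gelatin and irradiated mouse embryonic fibroblast feeders, whose strain the labels do not give, and were collected with Accutase. No agent was added at either time. Without a map from cells to lines a library is 1 sample, so there is no test between time points or cell types, and every interval below covers counting error only.

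MHC class I molecules show peptides from inside the cell to cytotoxic T cells and are also read by natural killer cells. Embryonic stem cells are known for low class I levels, which rise on differentiation and under interferon. H2-K1 and H2-D1 encode heavy chains, the polymorphic chains that hold the peptide, and B2m encodes beta-2 microglobulin, the light chain they need to reach the surface. Tap1 encodes one chain of the transporter that carries peptides into the endoplasmic reticulum, and Nlrc5 encodes the class I transactivator, which acts at the promoters of the other genes.

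In the GRCm38 annotation (GENCODE M21) H2-K1 (ENSMUSG00000061232) spans positions 33996017 to 34000347 of chromosome 17 on the minus strand. On the plus strand of the same chromosome lie Tap1 (ENSMUSG00000037321), at 34187553 to 34197225, and H2-D1 (ENSMUSG00000073411), at 35262730 to 35267499. B2m (ENSMUSG00000060802) lies on chromosome 2 at 122147686 to 122153083 and Nlrc5 (ENSMUSG00000074151) on chromosome 8 at 94434356 to 94527272, both on the plus strand. A gene on the opposite strand, Patl2, overlaps B2m, and the first exon of Psmb9 overlaps the start of Tap1. Heavy chain genes are close relatives: of the 60-base windows in its annotated transcripts, H2-D1 shared 8.14% with another gene and H2-K1 5.89%, including H2-Q7 in both cases. For Tap1 the share was 0.264%, and for B2m and Nlrc5 it was 0. C3H carries the k haplotype of the complex, whereas the reference genome is that of the b haplotype, so levels of the heavy chains can depend on how their alleles align.

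RefSeq promoter sequences (GRCm38.p6) were found for 4 of the 5 genes, all but Nlrc5. The 250 bases upstream of the RefSeq start were searched on both strands for TGACG, the core of the X2 box, for CCAAT, the Y box that NF-Y binds (written ATTGG on the other strand), for GGGATTCCC, a kappaB motif, for GAANNGAAA, a short form of the core of an interferon response element, for its longer form with a further A after the first GAA, and for TATAAA. The pieces below are shown because the X2 and Y boxes are the landing ground of the complex that recruits the transactivator. Capitals mark the motifs at both ends of each piece. For H2-D1 all 250 bases lie inside the gene as GENCODE annotates it, within an exon of a transcript that starts further upstream than the RefSeq one, and 246 of the bases before Tap1 lie in an annotated transcript of the neighbouring Psmb9.

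H2-K1, chr17:34000359-34000388, minus strand: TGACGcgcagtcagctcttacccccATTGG
H2-D1, chr17:35262993-35263022, plus strand: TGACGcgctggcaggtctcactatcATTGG
B2m, chr2:122147609-122147638, plus strand: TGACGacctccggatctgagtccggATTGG

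In all 3 genes TGACG was followed by ATTGG after 20 bases, an arrangement held by 0.0922% of 32536 distinct promoter windows (30 windows). Tap1 held TGACG and CCAAT, each once, but not in that arrangement. On their own the letters were common: CCAAT stood in 33.8% of windows and TGACG in 17.9%. Both heavy chain genes also carried the kappaB motif, found in 0.301% of windows, 11 bases before the shorter interferon motif, found in 6.35% of windows. That pair at that spacing, with the interferon motif spelled TTTCACTTC as in both genes, was present in 4 windows, 0.0123% of all. The spelling and spacing are those of these genes, whose own windows are in the count. B2m had neither that spelling of the kappaB motif nor the shorter interferon motif in this window. It held the longer interferon motif once, as did 2.98% of windows, and Tap1 had none of the 3. Other spellings of a kappaB motif were not searched, so their absence is not shown for any gene. The stretches that hold the pair differ little between the heavy chain genes.

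H2-K1, chr17:34000429-34000457, minus strand: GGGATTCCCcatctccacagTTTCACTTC
H2-D1, chr17:35262924-35262952, plus strand: GGGATTCCCcatctcctcagTTTCACTTC

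The whole upstream stretches of H2-K1 and B2m are given for context, with every motif that was searched for in capitals. The one for B2m holds TATAAA on the minus strand far from the start, a motif present in 12.3% of windows.

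H2-K1, chr17:34000348-34000597, minus strand: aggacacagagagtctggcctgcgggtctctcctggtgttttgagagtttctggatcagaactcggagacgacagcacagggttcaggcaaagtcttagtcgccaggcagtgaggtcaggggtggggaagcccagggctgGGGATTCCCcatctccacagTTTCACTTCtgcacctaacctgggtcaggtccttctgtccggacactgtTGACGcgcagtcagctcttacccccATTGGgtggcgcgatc
B2m, chr2:122147437-122147685, plus strand: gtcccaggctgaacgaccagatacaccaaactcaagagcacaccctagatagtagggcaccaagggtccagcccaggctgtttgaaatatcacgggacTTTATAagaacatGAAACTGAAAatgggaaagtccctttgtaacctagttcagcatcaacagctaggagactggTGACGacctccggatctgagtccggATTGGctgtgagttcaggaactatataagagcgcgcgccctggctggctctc

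The libraries held 1735810403 unique molecular identifiers (UMIs, each marking 1 captured RNA molecule) at time 1 and 1843588321 at time 2, and 192 cell barcodes occurred in both. After filtering, 23162 cells remained at time 1 and 25424 at time 2, with medians of 44395 and 50353.5 UMIs. Clusters were built without the antigen presentation and interferon genes and are called by their leading gene, the one with the highest fold over other cells. The pluripotent stem cell-like class had 9314 cells at time 1 and 11321 at time 2, and all 12 of its markers stood at 1 CPM or more (UMIs scaled to 1000000 per sum). It is not the same mixture at both times: the H19-led cluster made up 82.4% of it at time 1 and 7.87% at time 2, the Gm46332-led cluster 0.655% and 73.9%, and the Usp26-led cluster 16.9% and 18.2%. The Nanos3-led cluster, with 221 cells at time 1 and 7583 at time 2, was kept out of the class because Nanos3 and Dppa3, germ cell markers, were among its leading genes. Its germ cell markers summed to 511 and 453 CPM, against 464 and 333 in the H19-led cells inside the class. Its pluripotent markers summed to 9494 and 7492 CPM, against 9037 and 6583 in the Gm46332-led cells, so these sums do not set it apart. The Spry2-led and Rpgrip1-led clusters, with 3592 and 2382 cells at time 1, were left unnamed and are outside the class too. Their pluripotent markers summed to 7848.5 and 8311 CPM at time 1, against 6583 in the Gm46332-led cells of time 2. A cluster that comes mostly from 1 library may be that library and not a cell type.

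Cells of the pluripotent class held class I messages at low levels. H2-K1 stood at 37.1 CPM at time 1, with a 95% Poisson interval of 36.6 to 37.6, and 20.5 (20.1 to 20.8) at time 2. H2-D1 stood at 13.3 CPM (12.9 to 13.6) and 7.05 (6.85 to 7.25). B2m was at 10.0 CPM (9.73 to 10.3) and 8.59 (8.37 to 8.81), the smallest relative difference between times among the 4 genes above the edge of detection. Tap1 was at 5.27 CPM (5.08 to 5.47) and 1.29 (1.21 to 1.38). In the Spry2-led and Rpgrip1-led cells of time 1, outside the class, H2-K1 was at 70.5 and 82.8 CPM and B2m at 24.5 and 33.8. The transactivator gene Nlrc5 was at the edge of detection, with 37 UMIs at time 1 and 97 at time 2 in all pluripotent cells together, which is 0.0710 CPM with an upper bound of 0.0978 and 0.140 CPM with a lower bound of 0.114.

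Detection per cell was lower at time 2 for H2-K1, H2-D1, B2m and Tap1, as the levels were. With each cell thinned to 10000 UMIs, H2-K1 was seen in 28.5% of pluripotent cells at time 1 and 17.4% at time 2, and H2-D1 in 11.9% and 6.88%. B2m was seen in 9.50% and 7.86%, Tap1 in 5.27% and 1.36%, and Nlrc5 in 0.0966% and 0.0883%, an order opposite to that of its CPM, from which nothing is read. With all UMIs, at medians of 50678.5 and 52842 UMIs per cell, H2-K1 was seen in 73.1% and 56.5% and Nlrc5 in 0.397% and 0.848%. At the thinned depth 55.5% of pluripotent cells at time 1 and 70.4% at time 2 had no UMI of any of the 5 genes, while among fibroblast-like cells these shares were 3.79% and 15.2%. No cell type here is known to lack class I, so the floor was taken from free RNA, read in barcodes under 2000 UMIs. These held 1386 UMIs on average at time 1 and 987 at time 2. Small or broken cells among them cannot be told apart from free RNA. Barcodes under 2000 UMIs held H2-K1 at 104.6 CPM at time 1 and 32.4 at time 2, above the pluripotent level both times. If a pluripotent cell carried as much free RNA as 1 such barcode, that RNA would make up 7.72% of its H2-K1 level at time 1 and 2.95% at time 2. For the other 4 genes this share ran from 3.73% (Tap1) to 9.59% (Nlrc5) at time 1 and from 2.58% (H2-D1) to 8.80% (Nlrc5) at time 2.

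Across clusters the heavy chain genes were lowest in the Nanos3-led cells at both times, but at time 1 their intervals overlapped those of the Gm46332-led cells for both genes. At time 1 H2-K1 ran from 23.6 CPM in the Nanos3-led cluster to 262 in the Lyz2-led immune-like cluster. At time 2 it ran from 11.5 CPM, again in the Nanos3-led cluster, to 139 in the Fgf8-led cells. H2-D1 ran from 5.62 to 337 CPM at time 1, between the same clusters, and from 3.29 in the Nanos3-led to 41.6 in the Mgp-led fibroblast-like cluster at time 2. H2-K1 of time 2 was not high in that fibroblast-like cluster, at 29.5 CPM against 28.7 in the H19-led and 30.4 in the Usp26-led pluripotent cells. The order is coarse: of the 16 pairs of neighbours at time 1, counting intervals overlapped in 8 for H2-K1, 10 for H2-D1, 12 for B2m and all 16 for Tap1 and Nlrc5. At time 2 they overlapped in 6, 8, 7, 11 and 13 of 13 pairs in the same gene order. The immune-like cluster had 55 cells and all 8 immune markers at 1 CPM or more, but also 5590 CPM of pluripotent markers, and their part in its levels was not tested.

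**Figure D1:**
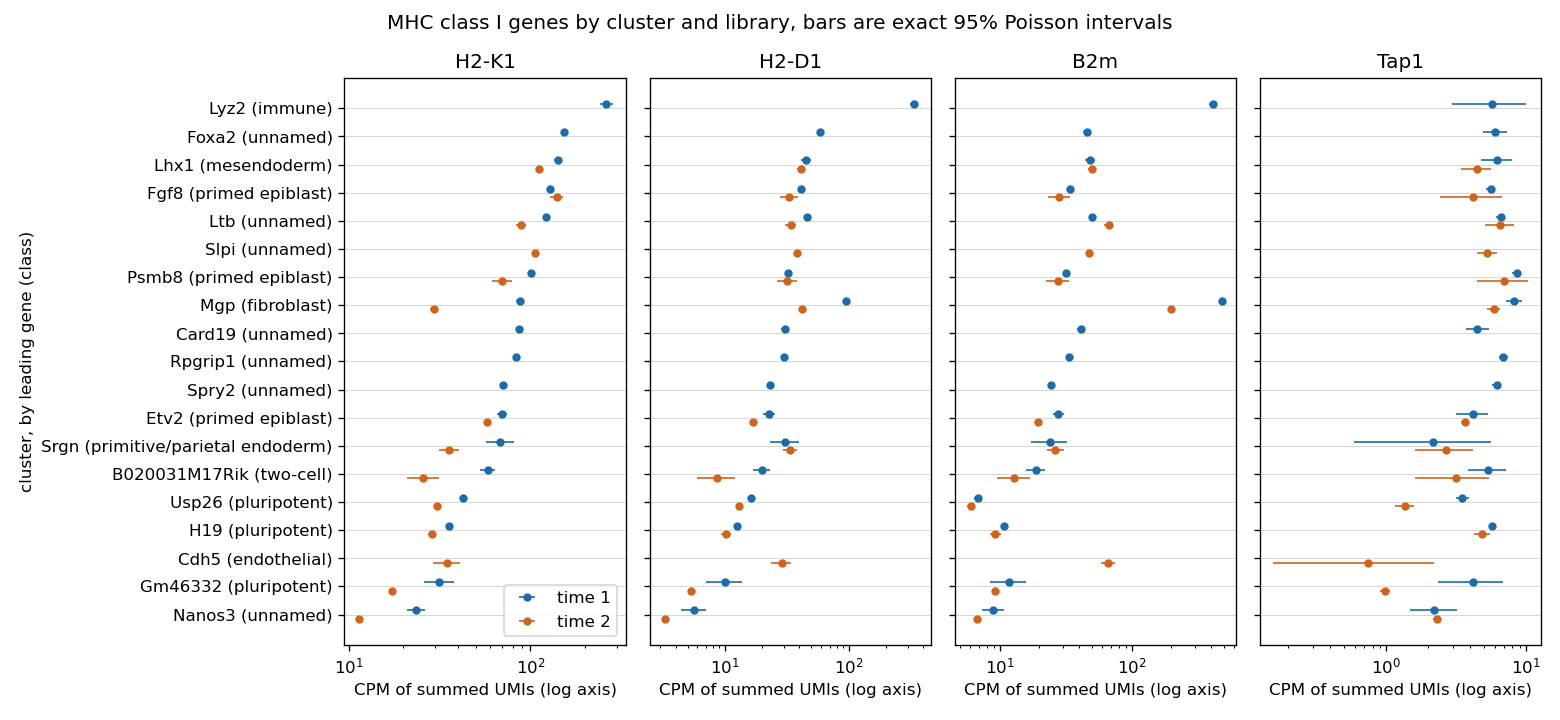
Level of 4 MHC class I genes in CPM on a log axis, in clusters named by their leading gene with the class in brackets. Points are library sums at time 1 (blue) and time 2 (orange) with exact 95% Poisson bars. H2-K1 and H2-D1 are lowest in the Nanos3-led cluster, whose bars overlap those of the Gm46332-led cluster at time 1. B2m is highest in the Mgp-led fibroblast-like cluster, at 485 and 199 CPM.

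Primed epiblast-like and mesendoderm-like cells had more of both heavy chains and of the light chain than pluripotent cells. Some clusters left unnamed did too, so the higher levels are not particular to those 2 types. H2-K1, H2-D1 and B2m were at 153, 58.6 and 46.0 CPM in the Foxa2-led cells of time 1. They were at 122, 46.1 and 49.8 in the Ltb-led cells of time 1 and 106, 38.2 and 47.5 in the Slpi-led cells of time 2. In the Fgf8-led primed epiblast-like cells H2-K1 stood at 129 CPM at time 1 (127 to 131, 2556 cells) and 139 at time 2 (128 to 151, 95 cells). H2-D1 stood there at 40.8 and 33.1 CPM and B2m at 34.2 and 28.2. The log2 ratios over pluripotent cells of the same library, on CPM plus 1, were 1.77 and 2.71 for H2-K1, 1.55 and 2.08 for H2-D1 and 1.68 and 1.61 for B2m. Calls of 2-fold were counted only over genes with at least 10 CPM in both sums, since a gene could otherwise enter through the higher sum alone; genes at very low levels in 1 of the sums are then not counted. At time 1 H2-K1 and H2-D1 qualified and both were at least 2-fold higher, as were 2.44% of 6557 genes, while 3.10% were at least 2-fold lower. At time 2 H2-K1 alone qualified and was again higher, as were 4.15% of 6150 genes, with 3.45% lower. Tap1 was at 5.59 CPM in Fgf8-led cells at time 1, with a log2 ratio of 0.07, and at 4.20 at time 2, with a ratio of 1.18, when pluripotent Tap1 was lower.

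The Lhx1-led mesendoderm-like cells, in which all 7 mesendoderm markers were present, gave a like picture. Those markers summed to 1179 and 965 CPM, and the 8 trophoblast markers to 1256 and 1705, with 7 at 1 CPM or more, against 235 and 103 in pluripotent cells, and their part in the levels was not tested. H2-K1 was at 142 CPM at time 1 (220 cells) and 112 at time 2 (308 cells), H2-D1 at 45.5 and 41.3, and B2m at 48.7 and 50.4. The log2 ratios over pluripotent cells were 1.91 and 2.40 for H2-K1, 1.71 and 2.39 for H2-D1 and 2.18 and 2.42 for B2m. Of the members with 10 CPM in both sums, H2-K1 and H2-D1 at time 1 and H2-K1 at time 2, each was at least 2-fold higher, as were 4.51% of 6503 genes at time 1 and 6.47% of 6109 at time 2, while 4.09% and 3.88% were at least 2-fold lower. Tap1 was at 6.21 and 4.43 CPM. Nlrc5 had 0 UMIs at time 1, with an upper bound of 0.358 CPM, and 3 at time 2, so a higher transactivator level was not detectable at this depth. The Etv2-led primed epiblast-like cells lay between these and pluripotent cells, with H2-K1 at 70.1 CPM at time 1 (233 cells) and 58.0 at time 2 (4366 cells). H2-K1 was at 68.1 CPM at time 1 and 35.7 at time 2 in the Srgn-led endoderm-like cells, 51 and 98 in number, and at 34.6 CPM in the 73 Cdh5-led endothelial-like cells of time 2. In the Srgn-led cells endoderm markers summed to 2874 and 4542 CPM, pluripotent markers to 5640 and 3690, and trophoblast markers to 773 and 307. Their part in the levels was not tested.

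Genes that supply and load peptides were in part higher in the same cells. In the list of 12 such genes, 9 had 10 CPM in both sums at time 1, and 4 of them were at least 2-fold higher in Fgf8-led than in pluripotent cells, Psmb8, Psmb9, Psmb10 and the proteasome activator gene Psme2. At time 2 it was 3 of 7, Tapbp, Psme1 and Psme2. In Lhx1-led cells it was 6 of 9 and 4 of 7, and no list gene was 2-fold lower in any of the 4 comparisons. Of all qualifying genes, 2.44% and 4.15% were at least 2-fold higher in Fgf8-led cells and 3.10% and 3.45% lower. In Lhx1-led cells 4.51% and 6.47% of them were higher and 4.09% and 3.88% lower. The median log2 ratio of the qualifying list genes was 0.892 and 0.998 in Fgf8-led cells and 1.14 and 1.60 in Lhx1-led cells, whereas the median over all qualifying genes lay between 0.035 and 0.0608. Psmb8, an inducible subunit of the immunoproteasome, was at 82.5 CPM in Fgf8-led cells against 12.4 in pluripotent cells at time 1, and at 82.3 against 2.10 at time 2. In Lhx1-led cells Psmb8 reached 142 and 157 CPM. Tap2, the partner of Tap1 in the transporter, was at 16.7 CPM in Lhx1-led cells and 3.19 in pluripotent cells at time 1. Tap2, and Psmb8 at time 2, were under 10 CPM in pluripotent cells and so outside the counts above. The constitutive subunits that Psmb8, Psmb9 and Psmb10 replace, Psmb5, Psmb6 and Psmb7, had 0 of 3 genes past 2-fold in each of the 4 comparisons. That count is too small to set apart from the shares of all genes.

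Few of the 18 interferon-stimulated genes had 10 CPM in both sums. In Lhx1-led cells 1 of 3 was at least 2-fold higher at time 1, Irgm1, an immunity-related GTPase, at 21.8 against 10.3 CPM, and 0 of 1 at time 2. In Fgf8-led cells it was 0 of 2 and 0 of 1, and these counts are too small to set apart from the shares of all genes above. Gbp2, an interferon-induced GTPase below 10 CPM in pluripotent cells, was at 73.5 CPM in Lhx1-led cells at time 1 and 150.0 at time 2, against 5.77 and 1.47 in pluripotent cells. Ddx58, an RNA sensor, was at 5.93 CPM in Fgf8-led cells of time 2 against 22.6 in pluripotent cells. Among regulators that bind class I promoters, Irf1 was at 46.9 CPM in Lhx1-led and 27.2 in pluripotent cells at time 1, and at 49.8 and 11.2 at time 2. Of those with 10 CPM in both sums, 0 of 7 were past 2-fold in Lhx1-led cells at time 1. At time 2 it was 1 of 7, Irf1, with a median log2 ratio of -0.00589. In Fgf8-led cells 1 of 6 was at least 2-fold higher at each time, Rfxap. These counts too are too small to set apart from the shares of all genes. No MHC class II gene reached 10 CPM in these comparisons.

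**Figure D2:**
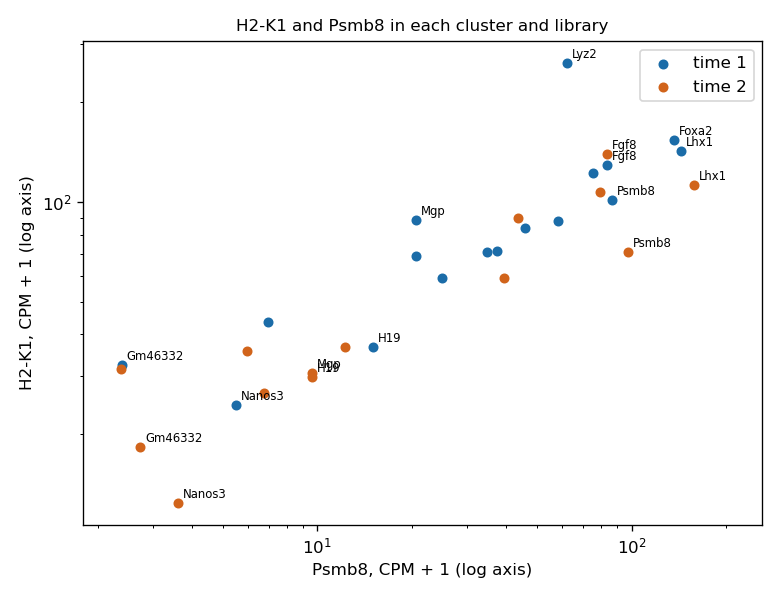
H2-K1 against Psmb8, both as CPM plus 1 on log axes, with 1 point for each cluster of at least 50 cells and library (31 points, blue time 1, orange time 2, some labelled by leading gene). Points run from the Nanos3-led and Gm46332-led clusters at the lower left to the Lhx1-led cells at the upper right, with the Lyz2-led immune-like and Mgp-led fibroblast-like points of time 1 above the others at their Psmb8 level.

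Over these 31 sums H2-D1 and H2-K1 had a Pearson r of 0.85 in log2 of CPM plus 1, and 0.92 without the fibroblast-like and immune-like points. Among 8068 genes the profile most like that of H2-K1 was Fos (r = 0.93), followed by Slc16a3 (0.90) and Psmb8 (0.89). The nearest to H2-D1 was Ifngr1, a chain of the interferon gamma receptor (0.91), and the nearest to B2m was Itm2c (0.95). Without the fibroblast-like and immune-like points the order changed: Slc16a3 (0.95) came first for H2-K1, with Fos the fourth and Psmb8 the seventh, and Gnas (0.95) came first for B2m. Tap1 and Nlrc5 never reached the 20 CPM that this measure asked for. Nlrc5 had an r of 0.14 with H2-K1 and 0.68 with B2m, and of -0.0090 and 0.19 without the fibroblast-like and immune-like points, on which the value for B2m thus rests. These points share libraries, depth and, in part, cells of 1 lineage, so the coefficients are descriptions. Within single pluripotent cells at the thinned depth, H2-K1 was seen in 38.4% of cells with an H2-D1 UMI and in 27.2% of those without one at time 1, and in 26.3% and 16.8% at time 2. At that depth 64.1% and 77.5% of cells had no UMI of either gene. Counting noise lowers any link between such sparse counts, so its strength within cells cannot be set against the r over sums.

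The balance of the heavy chains was different in fibroblast-like and immune-like cells. In pluripotent cells there were 2.80 H2-K1 UMIs per H2-D1 UMI at time 1 (2.72 to 2.88) and 2.90 at time 2 (2.81 to 3.00). Fibroblast-like cells had 0.921 (0.870 to 0.974) and 0.709 (0.664 to 0.757), and those with under 1000 CPM of pluripotent markers 0.710 (0.660 to 0.764) and 0.461 (0.416 to 0.510). Of the 31 cluster sums, 26 had a ratio above 2, from 2.18 to 4.20 with a median of 2.90, and 3 had an interval wholly below 1. Those 3 were the fibroblast-like cluster at both times and the immune-like cluster, at 0.776. The remaining sums were the endoderm-like cells at time 2, at 1.07 (0.891 to 1.28), and the endothelial-like cells, at 1.21 (0.937 to 1.56). Each UMI stands for 1 molecule and no length scaling was made. No label assigns the fibroblast-like barcodes to the feeders. If they are feeders, their H2 alleles and their cell type cannot be told apart here, as the feeder strain is not given.

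**Figure D3:**
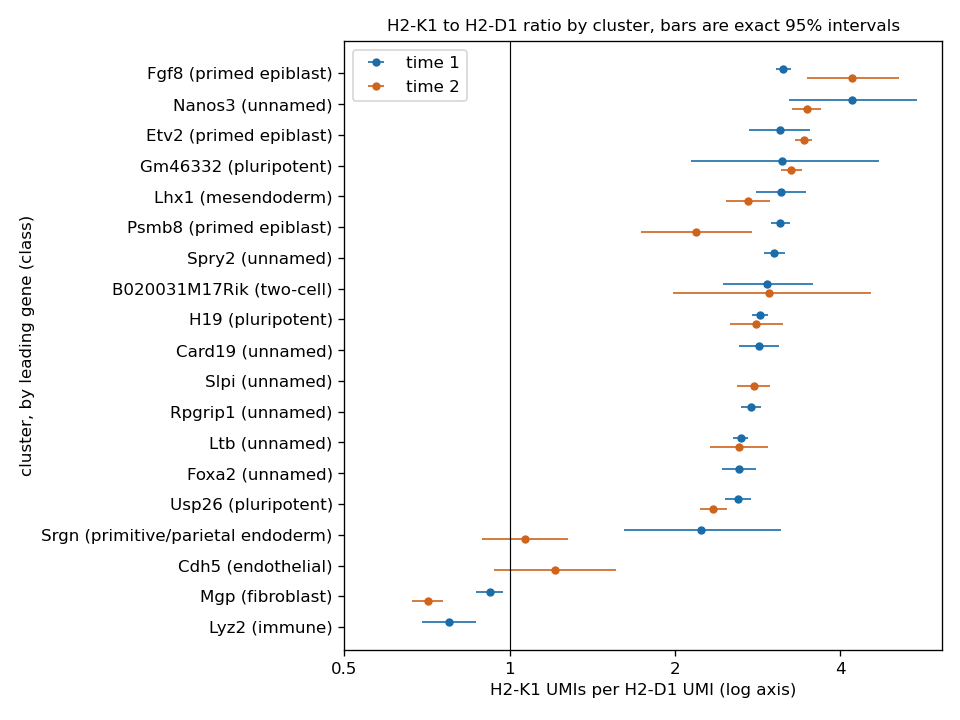
H2-K1 UMIs per H2-D1 UMI on a log axis in each cluster at time 1 (blue) and time 2 (orange), with exact 95% intervals and a line at a ratio of 1. The pluripotent, primed epiblast-like and mesendoderm-like clusters lie between 2.18 and 4.20, while the fibroblast-like cluster is at 0.921 and 0.709.

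B2m was far higher in fibroblast-like cells. The Mgp-led fibroblast-like cluster had 448 cells at time 1 and 698 at time 2, and all 9 fibroblast markers were at 1 CPM or more, summing to 2492 and 1705 CPM. The 10 primitive and parietal endoderm markers, a list with Sparc, Col4a1 and Pdgfra that fibroblasts express too, summed to 2126 and 2065 CPM with 6 at 1 CPM or more, and to 2932 and 3210 in the barcodes singled out next. Their part in the levels was not tested. The cluster also had 3056 and 3281 CPM of pluripotent markers, and its barcodes differed in them: 188 at time 1 and 343 at time 2 had under 1000 CPM of those markers, 58 and 98 had 1000 to 3 times as much, and 202 and 257 had more. Close to the limit of 1000 CPM lay 40 and 36 barcodes. B2m was at 485 CPM (477 to 493) at time 1 and 199 (195 to 203) at time 2 in the whole cluster, and at 719 and 339 in its barcodes under 1000 CPM. H2-D1 was at 94.9 and 41.6 CPM, and at 139 and 65.9 in those barcodes. H2-K1 was at 87.3 and 29.5 CPM, and at 99.01 and 30.3.

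Log2 ratios of the whole cluster over pluripotent cells were 5.47 at time 1 and 4.38 at time 2 for B2m, 2.75 and 2.40 for H2-D1, and 1.21 and 0.51 for H2-K1. Of the members with 10 CPM in both sums, H2-K1 and H2-D1 were at least 2-fold higher at time 1, as were 9.35% of 6343 genes, with 11.1% lower. At time 2 H2-K1 alone qualified and was not past 2-fold, where 9.08% of 6135 genes were higher and 7.07% lower. In the barcodes under 1000 CPM the same members qualified and were called alike, against 14.9% of genes higher and 19.8% lower at time 1 and 16.4% and 22.6% at time 2, with H2-K1 at 0.55 at time 2. The H2-K1 call of time 1 depends on the pluripotent class: its ratio fell under 2-fold with classes set by marker UMIs, at 0.46, and with primed epiblast-like and unnamed clusters added to that class, at 0.30. Set in these ways, the class held most filtered cells of time 1, 22948 and 22200 of 23162. B2m, at most 10.0 CPM in pluripotent cells, and H2-D1 at time 2 were outside these counts because of their low pluripotent level. Against the Usp26-led pluripotent cells alone the H2-K1 ratio of time 2 was -0.042, so no direction is given for it. Tap1 was at 8.27 and 5.86 CPM in the whole cluster and Nlrc5 at 0.816 and 0.423, from 22 UMIs each time.

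In the barcodes under 1000 CPM, 1 of 8 peptide supply genes with 10 CPM in both sums was at least 2-fold higher and 2 were lower than in pluripotent cells at time 1, and 2 and 1 of 7 at time 2, counts too small to set apart from the shares of all genes given above. Psmb10 was the lowest of them at time 2, at 31.5 against 99.8 CPM, and Pdia3, a chaperone of peptide loading, was higher, at 637 against 209. Among the interferon receptor and signalling genes only Jak1, a kinase of the receptors, had 10 CPM in both sums, and it was at 141 CPM against 28.2 at time 1 and 165 against 21.9 at time 2. Ifngr2, a chain of the interferon gamma receptor, was at 81.5 CPM against 2.85 at time 1. Irf2, a regulator that binds interferon response elements, was at 19.8 against 0.495 CPM and so outside the counts. Of 6 promoter-binding regulators with 10 CPM in both sums at each time, the NF-Y genes Nfyb and Nfyc were at least 2-fold lower both times. Nfkb1 was at least 2-fold higher at time 1, and none was at time 2. The shares of all genes were 14.9% higher and 19.8% lower at time 1, and 16.4% and 22.6% at time 2. At each time 2 interferon-stimulated genes had 10 CPM in both sums, of which 1 at time 1 and 2 at time 2 were at least 2-fold lower and none higher. Bst2, an antiviral membrane protein, was lower at both times, at 48.4 against 211 and 48.1 against 106 CPM, and Ddx58 at time 2, at 10.13 against 22.6. Per fibroblast marker UMI there were 8.43 (time 1) and 4.38 (time 2) heavy chain UMIs in pluripotent cells, against 0.0731 and 0.0417 in the fibroblast-like cluster.

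After 10 passages Tap1 and both heavy chain genes were lower in pluripotent cells, and B2m by less. The log2 ratio of time 2 over time 1 was -1.45 (-1.52 to -1.38) for Tap1, -0.83 (-0.86 to -0.80) for H2-K1 and -0.82 (-0.87 to -0.78) for H2-D1. It was -0.20 (-0.25 to -0.15) for B2m and 0.09 for Nlrc5, which turned to -0.011 in thinned cells. The B2m value rests on the class: it was -0.88 with classes set by marker UMIs and -0.96 with primed epiblast-like and unnamed clusters added, where H2-K1 was at -1.30 and -1.34 and H2-D1 at -1.32 and -1.39, past 2-fold. Those 2 wider classes took in most filtered cells, 22948 and 22200 of 23162 at time 1 and 25052 and 24183 of 25424 at time 2. They mix clusters whose cell numbers differ between times, such as Fgf8-led cells with 2556 and 95. Makeup and passage cannot be told apart in these values. Only H2-K1 had 10 CPM or more at both times, and it was not past 2-fold, where 1.90% of 6524 such genes were at least 2-fold lower and 0.966% at least 2-fold higher. Tap1, past 2-fold, was below 10 CPM at both times. The median over the 6524 genes was 0.00561. In the class pluripotent markers summed to 10768 CPM at time 1 and 7758 at time 2, germ cell markers to 399 and 121, and primed epiblast markers to 180 and 113. Trophoblast markers summed to 235 and 103, while endoderm markers were higher at time 2, at 146 and 184. Their part in the passage values was not tested.

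The difference was not of 1 size in all clusters of the class. Within the H19-led cluster the log2 ratios were -0.20 for Tap1, -0.30 for H2-K1, -0.27 for H2-D1 and -0.20 for B2m. In the same cells the 8 trophoblast markers summed to 269 CPM at time 1 (6 at 1 CPM or more) and 848 at time 2 (all 8), and the pluripotent markers to 10296 and 8097, and their part was not tested. Within the Usp26-led cluster the ratios of these genes, in the same order, were -0.94, -0.48, -0.32 and -0.14. Within the Gm46332-led cluster, which had 61 cells at time 1 and 8368 at time 2, they were about as large as in the whole class, at -1.38 (-1.97 to -0.79) for Tap1, -0.83 (-1.09 to -0.57) for H2-K1, -0.81 (-1.24 to -0.37) for H2-D1 and -0.32 (-0.72 to 0.08) for B2m. In the Nanos3-led cells, outside the class, H2-K1 was at -0.98. The Gm46332-led cells of time 2 set against the H19-led cells of time 1 gave -1.76 for Tap1, -1.01 for H2-K1, -1.10 for H2-D1 and -0.21 for B2m. That last comparison changes cluster and passage together. H2-K1 was lower at time 2 in 11 of the 12 clusters with at least 50 cells at both times, with intervals apart in all 11, and H2-D1 also in 11 of 12, with intervals apart in 9. The exceptions were the Fgf8-led cells for H2-K1 and the Srgn-led cells for H2-D1. B2m was lower in 9 of 12, with intervals apart in 4, and was higher with intervals apart in 1, the Ltb-led cells, at a log2 ratio of 0.42. In the Ltb-led cells fibroblast markers summed to 24.8 CPM at time 1 and 70.6 at time 2, and trophoblast markers to 1375 and 3145. Endoderm markers there summed to 313 and 619 and pluripotent markers to 2899 and 1805, and their part was not tested. Tap1 was lower in 10 of 12, with intervals apart in 3. All clusters of a time come from 1 library, so they are not replicates of the passage difference. The share of all genes lower in as many clusters was not computed. In the barcodes under 2000 UMIs, read as free RNA, H2-K1 was lower at time 2 too, at 104.6 and 32.4 CPM. So were H2-D1, at 23.02 and 9.74, and Tap1, at 7.19 and 2.39, but not B2m, at 22.4 and 24.1. The part of such RNA in these differences was not tested.

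**Figure D4:**
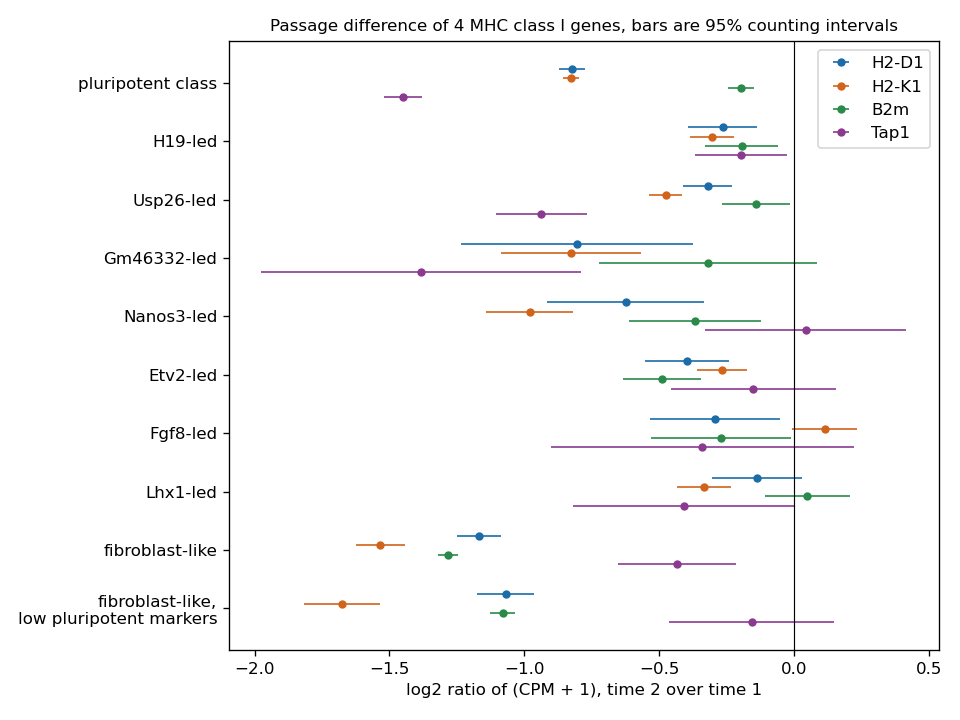
Log2 ratio of CPM plus 1, time 2 over time 1, for 4 genes in the pluripotent class, in single clusters and in fibroblast-like cells, with 95% counting intervals and a line at 0. In the pluripotent class Tap1 is at -1.45, but at -0.20 within the H19-led cluster, and the fibroblast-like values for H2-D1, H2-K1 and B2m lie below -1.

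Of 7 peptide supply genes with 10 CPM at both times in the pluripotent class, 1 was at least 2-fold lower at time 2, Tapbp, tapasin, at 31.1 and 13.9 CPM, and none was 2-fold higher, where the shares of all 6524 genes were 1.90% and 0.966%. The median log2 ratio of these 7 genes was -0.308, against 0.00561 over all. Psmb8, at 12.4 and 2.10 CPM, and Psmb9, at 10.4 and 3.32, passed 10 CPM at time 1 alone. Psmb10 was higher, at 58.6 and 99.8 CPM, with a log2 ratio of 0.76. Of 7 promoter-binding regulators with 10 CPM at both times 1 was past 2-fold, Irf1, at 27.2 and 11.2 CPM. The median log2 ratio of those 7 was -0.0753. Within the H19-led cluster 0 of 7 peptide supply genes were past 2-fold, against 0.173% of genes lower and 0.259% higher. Among Usp26-led cells it was also 0 of 7, against 0.463% lower and 0.194% higher.

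In fibroblast-like cells the log2 ratio across passages was -1.53 for H2-K1, -1.17 for H2-D1, -1.28 for B2m and -0.43 for Tap1. In the barcodes under 1000 CPM of pluripotent markers it was -1.67, -1.07, -1.08 and -0.16. Marker levels in these sums differed between times too. The 8 immune markers summed to 54.6 CPM at time 1 and 12.9 at time 2 in the whole cluster, with 7 and 4 of them at 1 CPM or more, and to 90.2 and 7.67 in the barcodes under 1000 CPM, where C1qb was at 0 at time 2. The 9 fibroblast markers, at the sums given above in the whole cluster, were at 3571 and 2714 CPM in those barcodes. Their part in the passage values was not tested. The 3 members with 10 CPM at both times, H2-K1, H2-D1 and B2m, were at least 2-fold lower in the whole cluster, against 0.962% of 7171 genes, and 0.544% of genes were at least 2-fold higher. The labels do not say whether the feeders of the 2 times were 1 batch. If the fibroblast-like cells are feeders, feeder batch and passage cannot be told apart.

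Chromosome content was read from the same cells, as thinned shares of UMIs per chromosome. Nlrc5 lies on chromosome 8, whose share was at least 1.3 times the reference, here called a gain, in 7.39% of pluripotent cells at time 1 and 41.7% at time 2. The time 2 share depends on that limit: the median ratio was 1.28, 62.0% of cells lay between 1.2 and 1.4, and 67.7% passed a limit of 1.2 and 5.67% a limit of 1.4. The 2 classes of time 2 are therefore not cleanly apart, with median ratios of 1.34 and 1.12. At time 2 Nlrc5 was at 0.141 CPM (0.101 to 0.192) in cells past the limit of 1.3 and 0.139 (0.106 to 0.181) in the others, from 40 and 57 UMIs, so a difference was not detectable at this depth and with this split. Chromosomes 2 and 17, which carry the other genes, were called gained in 0.0966% to 0.172% of cells. H2-D1 was lower in cells with a chromosome 8 gain, at 8.97 against 13.6 CPM at time 1 and 5.03 against 8.45 at time 2. By the same limit for chromosome 1, H2-D1 of time 2 was at 5.35 CPM in 6888 cells with a gain and 9.68 in the other 4433. H2-K1 was lower too with a chromosome 8 gain, at 33.1 against 37.4 at time 1 and 16.5 against 23.2 at time 2. B2m was higher with that gain, at 11.4 against 9.89 and 9.08 against 8.25. It was also higher with a chromosome 1 gain at time 2, at 9.51 against 7.16. H2-D1 was also lower in cells without Y UMIs and with low X dosage than in those with high X dosage, at 10.06 against 14.7 and 5.16 against 12.2. B2m had the opposite order, at 11.6 in X-low and 8.70 in X-high cells at time 1 and 9.37 and 6.57 at time 2. Within the H19-led cluster the X comparison for H2-D1 was 10.11 against 13.8 at time 1 and 6.87 against 10.3 at time 2. H2-K1 over the whole class was at 35.7 in X-low and 36.7 in X-high cells at time 1, with overlapping intervals, and 17.5 and 28.8 at time 2. Within the H19-led cluster it had the opposite order, at 35.8 and 34.1 at time 1 and 30.2 and 24.8 at time 2. A further class, cells with at least 2 Y UMIs, had 646 cells at time 1 and 758 at time 2. H2-D1 was at 12.5 and 7.12 CPM in it, between the X-low and X-high levels. H2-K1 was at 41.2, above both X classes, and 20.4, between them. B2m was at 13.4, above both, and 8.20, between them. Lines, clusters and gains overlap in these classes and cannot be told apart.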

How the data were processed

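The deposited files hold UMI counts per gene and barcode, made by the authors with Cell Ranger (version 6.1.2 per the file headers) and bcl2fastq 2.20.0.422 on mm10 (GRCm38), per the submitters' processing notes. They are raw counts. There were 0 value columns of other samples. Cells needed 0.1 times the 99th percentile of UMIs of the 20000 largest barcodes as a floor (18315 and 18646 UMIs), 1000 genes and at most 10% mitochondrial UMIs. Scrublet's own threshold marked 0 cells at time 1, so the 10% of cells with the highest scores were removed per library, a choice made after seeing that. Cells were clustered in scanpy 1.11.5 with Leiden at resolution 0.5, from 15 neighbours and 30 components of 2000 variable autosomal genes, and 1 cluster was clustered again. No barcode was under the limit first set for free RNA, which was therefore read in barcodes below 2000 UMIs.

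Counts were summed per library and cell class and scaled to a total of 1000000 (CPM). Ratios are log2 of CPM plus 1. Genes entered counts past 2-fold with at least 10 CPM in both sums, a rule added after seeing the data in place of 10 CPM in either sum. Named list genes were the 3 of each list with the largest ratio among those with 10 CPM in either sum, and others were named after their values were seen. Intervals are exact Poisson or Clopper-Pearson at 95%. The log2 ratio was tested on simulated data. The genes, lists and markers were chosen with earlier results of these data known. Analyses ran in Python 3.11.15 and edgeR 4.0.16. Alternatives changed the pseudocount, doublets, depth, scaling, classes and thinning. The restriction to fibroblast-like barcodes under 1000 CPM, and to 1 pluripotent cluster, was added after seeing the data.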

Additional observations from a re-analysis of the deposited data

Results flagged for a closer look

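Nlrc5 had log2 ratios of opposite sign across passages in 2 cell classes. Its log2 ratio of time 2 over time 1 was 0.09 in pluripotent stem cell-like cells (37 and 97 UMIs) and -0.35 in fibroblast-like cells (22 UMIs at each time), a difference of -0.44. The difference was not tested, since each class has 1 library per time. With cells thinned to 10000 UMIs the pluripotent ratio was -0.011. Among the 12 clusters with at least 50 cells at both times, the Nlrc5 intervals of the 2 times were apart in 0.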

How the results depend on the processing

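No paired analysis was possible because each time point has 1 library. Of the 15 log2 ratios (5 genes, 3 comparisons), those outside the counting interval of the reported value are given here. Keeping barcodes from 5000 UMIs moved none. The cause of the movements was not tested. The TMM factors themselves differ by 0.127 on the log2 scale for the passage ratio, and by -0.117 at time 1 and -0.133 at time 2 for the fibroblast-like to pluripotent ratio; through the pseudocount of 1, genes at low levels shift by less. With 10 CPM required in either sum and not in both, the share of all genes at least 2-fold higher ran from 0.276% to 28.5% and lower from 0.176% to 26.7% over the 12 comparisons. With a pseudocount of 0.1, the passage ratio in pluripotent cells was -0.90 for H2-D1, -1.95 for Tap1 and 0.49 for Nlrc5. The fibroblast-like to pluripotent ratio of time 1 was 2.83 for H2-D1, 5.59 for B2m and 2.42 for Nlrc5. Its value at time 2 was 2.54 for H2-D1, 4.52 for B2m, 2.10 for Tap1 and 1.12 for Nlrc5. With doublets kept, the fibroblast-like to pluripotent ratio at time 1 was 5.42 for B2m. At time 2 it was 2.29 for H2-D1 and 4.28 for B2m. With edgeR TMM factors, the passage ratio in pluripotent cells was -0.71 for H2-D1, -0.71 for H2-K1, -0.084 for B2m and -1.38 for Tap1. Fibroblast-like over pluripotent, the ratio of time 1 was 2.63 for H2-D1, 1.10 for H2-K1 and 5.35 for B2m. For time 2 the same ratio was 2.29 for H2-D1, 0.38 for H2-K1 and 4.26 for B2m. With classes set by marker UMIs, the pluripotent class took in most filtered cells of every kind. The passage ratio in that class was -1.32 for H2-D1, -1.30 for H2-K1, -0.88 for B2m and -1.10 for Tap1. Between fibroblast-like and pluripotent cells the ratio of time 1 was 2.21 for H2-D1, 0.46 for H2-K1 and 4.55 for B2m. Its value at time 2 was 2.57 for H2-D1, 0.056 for H2-K1 and 0.53 for Nlrc5. With thinned cells, the passage ratio in pluripotent cells was -0.75 for H2-D1, -0.78 for H2-K1 and -0.011 for Nlrc5 (reversed). The fibroblast-like to pluripotent ratio of time 1 was 0.35 for Tap1. At time 2 it was 2.48 for H2-D1, 4.61 for B2m and 0.53 for Nlrc5. With primed epiblast-like and unnamed clusters added to the pluripotent class, it also took in most filtered cells. The passage ratio in that wider class was -1.39 for H2-D1, -1.34 for H2-K1, -0.96 for B2m and -1.12 for Tap1. Fibroblast-like over pluripotent, the ratio of time 1 was 1.90 for H2-D1, 0.30 for H2-K1 and 4.33 for B2m. For time 2 the same ratio was 2.12 for H2-D1, 0.099 for H2-K1, 4.01 for B2m and 1.11 for Tap1. With fibroblast-like barcodes under 1000 CPM of pluripotent markers, the fibroblast-like to pluripotent ratio at time 1 was 3.30 for H2-D1, 1.39 for H2-K1, 6.03 for B2m and 0.79 for Tap1. Its value at time 2 was 3.05 for H2-D1, 5.15 for B2m and 2.08 for Tap1. With the H19-led cluster alone, the passage ratio in pluripotent cells was -0.27 for H2-D1, -0.30 for H2-K1 and -0.20 for Tap1. Between fibroblast-like and pluripotent cells the ratio of time 1 was 2.83 for H2-D1 and 5.37 for B2m. At time 2 it was 1.93 for H2-D1, 0.038 for H2-K1, 4.28 for B2m and 0.23 for Tap1. With the Usp26-led cluster alone, the passage ratio in pluripotent cells was -0.32 for H2-D1, -0.48 for H2-K1, -0.14 for B2m and -0.94 for Tap1. The fibroblast-like to pluripotent ratio of time 1 was 2.46 for H2-D1, 1.01 for H2-K1, 5.95 for B2m and 1.04 for Tap1. For time 2 the same ratio was 1.61 for H2-D1, -0.042 for H2-K1 (reversed) and 4.81 for B2m. In the other results each alternative kept the direction and stayed in the interval. Depth limits Nlrc5 above all, and 1 library per time leaves the spread between cultures unknown.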
